A study of Homo sapiens with 6 samples.

Results

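The 10 genes described here encode transcription factors that direct the making of monocytes and granulocytes: SPI1, CEBPA, CEBPB, CEBPE, GFI1, IRF8, KLF4, MYB, RUNX1 and ZEB2. They were taken by gene name from a deposited table of 31853 genes, and each name matched 1 row. The table holds 6 poly(A) RNA libraries of Mon-Mac-6, a human monocytic leukaemia cell line: 3 libraries of cells given 500 nM WD6305 for 48 h, and 3 of cells given DMSO, the solvent, for the same 48 h. WD6305 is named in the series title as a PROTAC, a degrader molecule, against METTL3, the enzyme that places N6-methyladenosine on messenger RNA. All libraries come from this single line, and the labels do not say whether the libraries of a group are separate cultures, so p-values measure the spread between these libraries, which may be technical.

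Blood progenitors choose the monocyte or the granulocyte path through a small circuit of such factors. PU.1, the product of SPI1, and C/EBP alpha, the product of CEBPA, open the myeloid programme. IRF8 and KLF4 then favour monocytes, while GFI1 and C/EBP epsilon favour neutrophils, and MYB keeps progenitors dividing and immature. RUNX1 acts earlier, in the making of blood stem cells, and is often mutated in acute myeloid leukaemia. Several of these factors act by dose and bind one another.

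RNA of 9 of the 10 factors differed between WD6305 and DMSO, and all of these differences were below 2-fold; 2.3% of all tested genes were called with at least a 2-fold difference. SPI1, CEBPB, CEBPE, GFI1, IRF8, KLF4, MYB and ZEB2 rose, RUNX1 fell, and CEBPA did not pass the test. Of all 18138 genes tested with the edgeR quasi-likelihood test, 23.4% were called at an adjusted p under 0.05, with 12.2% higher and 11.2% lower. All 10 factors have a mean FPKM of at least 1, and among the 10986 such genes the share called was 33.8%, with 17.8% higher and 16.1% lower. No overlap between groups was seen in 9 of the 10 factors and in 40.8% of all tested genes. The median log2 fold change was 0.30 over the 10 factors and 0.00 over all tested genes. Without 1 library the number of factors called was between 3, without WD6305 3, and 7, without DMSO 3. It was 4 without WD6305 2 and 5 without DMSO 1. Without both WD6305 1 and DMSO 3, 6 factors were called, 5 higher and 1 lower, and 22.3% of 18467 tested genes.

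**Figure D1:**
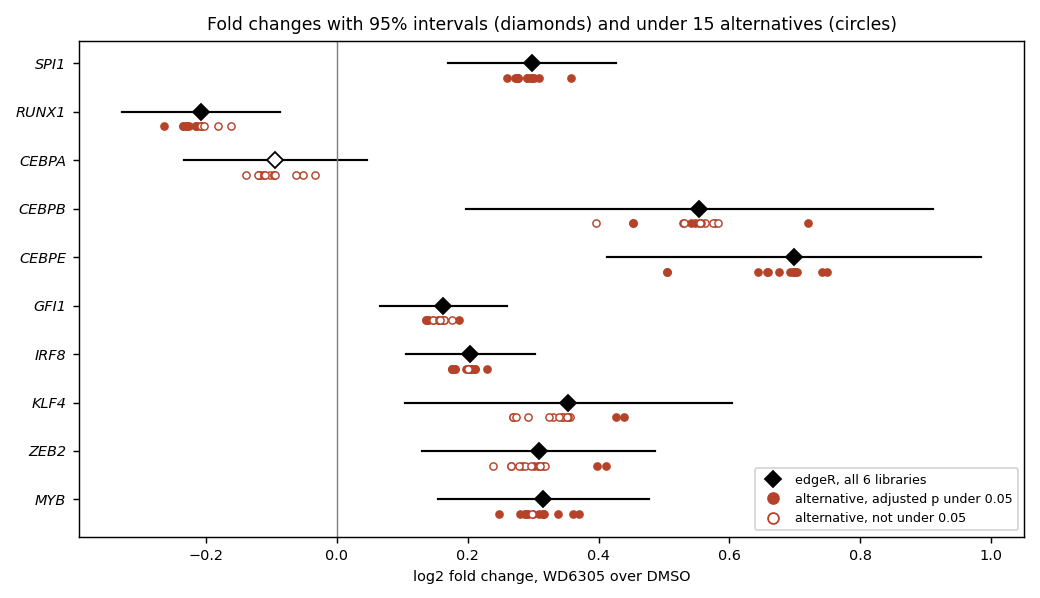
Log2 fold change of each factor, WD6305 over DMSO, on the horizontal axis, as a diamond with its 95% interval from the edgeR quasi-likelihood fit, above circles for the 15 alternative settings; open symbols are not under an adjusted p of 0.05. CEBPE (0.70) and CEBPB (0.55) lie farthest to the right, RUNX1 (-0.21) lies left of 0, and the interval of CEBPA spans 0.

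Library facts bear on some of these values. Deposited counts summed to between 64525948 and 71155346 per library. METTL3 RNA was 78.0 ± 1.88 CPM with WD6305 and 67.3 ± 2.86 CPM with DMSO (CPM is the count scaled to library size; mean ± SD, n = 3 each), a 1.16-fold rise (log2 fold change 0.21, SE 0.05, edgeR adjusted p = 0.0218). As a degrader acts on protein, this RNA does not check the labels. Summed FPKM of 9 monocyte markers was 5090 to 5883 with WD6305 and 2968 to 3215 with DMSO, and 6 of the 9 had at least 1 FPKM in every library, while CD4 and CD163 were below 1. Nearly all of this sum was LYZ, lysozyme, at 5455 FPKM with WD6305 and 3040 FPKM with DMSO. Of the 9 markers 5 rose (LYZ, CD33, CD68, CSF1R and ITGAM), CD14 and CD163 fell, and FCGR1A and CD4 were not called (edgeR). Summed FPKM of 5 granulocyte precursor markers was 7692 to 8215 with WD6305 and 5141 to 5513 with DMSO. Most of this sum was CTSG (3998 FPKM with WD6305 and 3195 with DMSO) and ELANE (2894 with WD6305 and 1572 with DMSO). Of the 5 markers CTSG, ELANE, AZU1 and PRTN3 rose, and MPO fell, at 7.50 FPKM with WD6305 and 9.69 with DMSO (edgeR). In bulk RNA, a change in the share of cells of a type and a change of RNA per cell cannot be told apart. WD6305 1 and DMSO 3 stood apart from the other libraries: 7 keratin and epithelial markers summed to 2.67 FPKM in WD6305 1 and 3.14 FPKM in DMSO 3, against 42.6 to 55.3 FPKM in the other 4 libraries. Fibroblast markers, 4 collagen and matrix genes, summed to 4.33 FPKM in WD6305 1 and to 0.13 to 0.27 FPKM elsewhere. Erythroid markers summed to 1.03 to 1.99 FPKM with WD6305 and 1.41 to 1.85 FPKM with DMSO. Megakaryocyte markers summed to 0.27 to 0.41 FPKM with WD6305 and 0.42 to 0.52 FPKM with DMSO, and B cell markers to 0.57 to 0.71 FPKM with WD6305 and 0.53 to 0.60 FPKM with DMSO. T cell markers were not used here. Results without WD6305 1 and DMSO 3 are given with the factors they touch.

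Per length of transcript, SPI1 and CEBPA were the most abundant of the 10 factors and CEBPE the least. SPI1 averaged 180 ± 1.80 FPKM with WD6305 and 149 ± 10.9 FPKM with DMSO (SD, n = 3 each), which is above 99.0% of tested genes. CEBPA followed with 131 ± 10.1 FPKM with WD6305 and 142 ± 4.24 FPKM with DMSO, and the ranges of SPI1 and CEBPA overlapped in DMSO but not in WD6305. MYB had 95.6 ± 7.83 FPKM with WD6305 and 78.1 ± 6.19 FPKM with DMSO. CEBPA was above 98.8% of tested genes and MYB above 97.8%. GFI1 (44.8 ± 0.559 FPKM) and IRF8 (38.9 ± 0.268 FPKM) came next in WD6305, as they did in DMSO with 40.7 ± 1.29 and 34.3 ± 1.21 FPKM. RUNX1 and ZEB2 did not differ beyond their spread in WD6305, at 12.6 ± 0.50 and 11.9 ± 0.180 FPKM, whereas in DMSO RUNX1 was above ZEB2, at 14.8 ± 0.778 against 9.79 ± 1.34 FPKM. The 3 lowest were CEBPB, KLF4 and CEBPE, in that order in both groups. In WD6305 they had 5.79 ± 0.165, 4.85 ± 0.469 and 3.64 ± 0.20 FPKM, and in DMSO 4.02 ± 0.919, 3.86 ± 0.422 and 2.27 ± 0.161 FPKM, with CEBPB and KLF4 overlapping in DMSO. CEBPE was above 55.7% of tested genes.

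**Figure D2:**
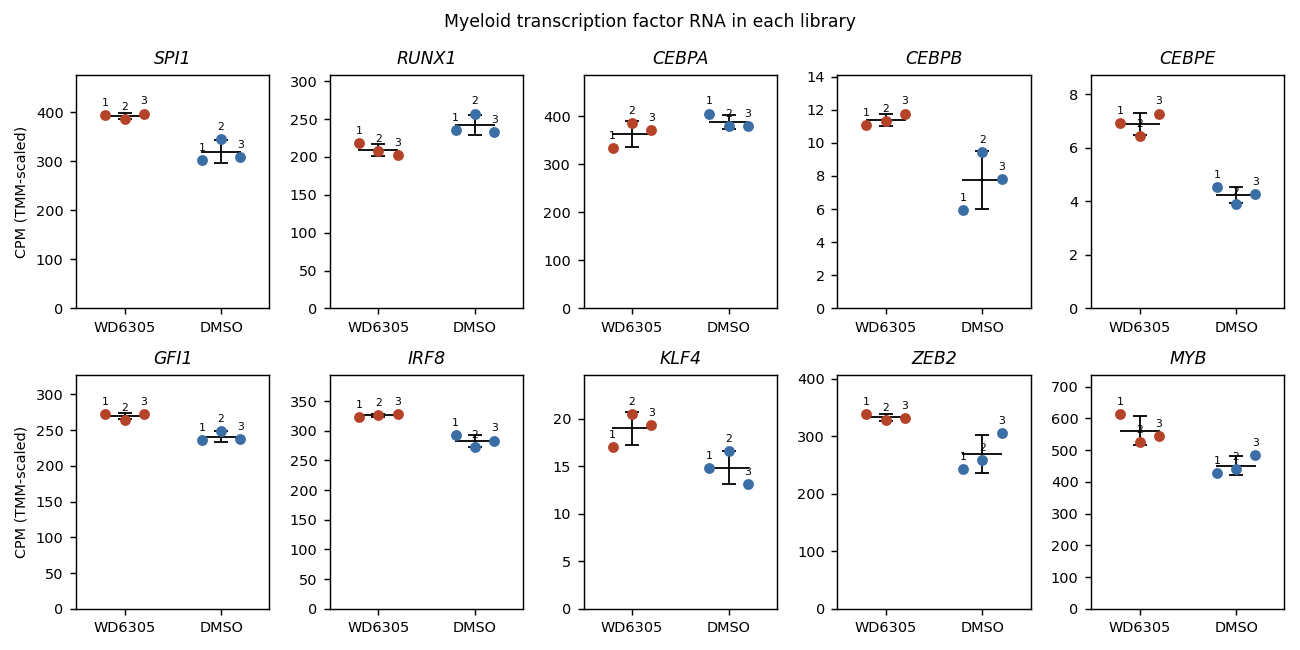
CPM of the 10 factors in each library, WD6305 left of DMSO, with each point 1 numbered library, the long line the group mean and the error bar ± SD (n = 3); each panel has its own axis from 0. Only in CEBPA do the points of the groups overlap.

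SPI1, whose product PU.1 is the ETS-family factor that monocytes, granulocytes and B cells all need, lies on the minus strand of chr11:47354860-47378547 (GRCh38). It had 394, 385.5 and 397 CPM in the 3 WD6305 libraries, against 302.5, 346 and 309 CPM in the DMSO libraries. Every WD6305 library was above every DMSO library, and the WD6305 libraries lay close together. The rise was 1.23-fold, a log2 fold change of 0.30 (SE 0.06, 95% interval 0.17 to 0.43, edgeR adjusted p = 0.00573), and SPI1 was called in all 15 alternative settings. A neighbouring unnamed gene, ENSG00000255197 at chr11:47381509-47409291 on the same strand, also rose, with 4.93 ± 0.526 FPKM in WD6305 and 3.71 ± 0.340 FPKM in DMSO (log2 fold change 0.43, edgeR adjusted p = 0.0176).

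RUNX1, the DNA-binding partner of CBFB and a gene of blood stem cell formation, lies on the minus strand of chr21:34787801-35984749. It had 218, 208 and 202.5 CPM with WD6305, against 236, 257 and 233 CPM with DMSO. It was the only called factor that was lower with WD6305, with no overlap between groups. RUNX1 fell by 0.21 on the log2 scale (SE 0.05, 95% interval -0.33 to -0.09, edgeR adjusted p = 0.0222), which is 1.16-fold. The call did not survive leaving out DMSO 2 (edgeR adjusted p = 0.0781), WD6305 2 (0.0760) or WD6305 3 (0.105). Within the RUNX family, RUNX1 made up 49.3% of the summed FPKM in WD6305 and 56.0% in DMSO, and RUNX2, a factor of bone formation, 41.7% in WD6305 and 35.6% in DMSO. The sum over RUNX1, RUNX2 and RUNX3 was 25.6 ± 0.892 FPKM with WD6305 and 26.4 ± 1.63 FPKM with DMSO. RUNX2 had a log2 fold change of 0.21 and did not pass the test (edgeR adjusted p = 0.0535).

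The C/EBP factors are leucine zipper proteins that bind one DNA motif as dimers and take over from one another as granulocytes mature. CEBPA acts first, CEBPE in late neutrophil maturation, and CEBPB in emergency granulopoiesis and in macrophages. CEBPE and CEBPB rose and CEBPA did not pass the test. The ratios given below, not these calls, compare CEBPE and CEBPB with CEBPA. The 250 bases before the RefSeq start of each are shown, from GRCh38.p14 and written on the gene's own strand. CEBPA had the highest and CEBPE the lowest FPKM of 6 C/EBP genes in both groups, and their windows differ in base composition. Whether base composition relates to level or change was not tested. Capitals mark matches to the motifs searched, and windows with no match are all lower case. The windows are chr14:23119256-23119505 (minus strand) for CEBPE, chr20:50190333-50190582 (plus strand) for CEBPB and chr19:33302535-33302784 (minus strand) for CEBPA.
CEBPE: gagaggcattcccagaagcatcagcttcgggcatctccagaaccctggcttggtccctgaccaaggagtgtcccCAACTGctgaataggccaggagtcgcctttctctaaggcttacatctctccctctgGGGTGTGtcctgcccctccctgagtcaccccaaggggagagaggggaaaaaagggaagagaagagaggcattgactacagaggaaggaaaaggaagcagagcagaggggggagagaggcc
CEBPB: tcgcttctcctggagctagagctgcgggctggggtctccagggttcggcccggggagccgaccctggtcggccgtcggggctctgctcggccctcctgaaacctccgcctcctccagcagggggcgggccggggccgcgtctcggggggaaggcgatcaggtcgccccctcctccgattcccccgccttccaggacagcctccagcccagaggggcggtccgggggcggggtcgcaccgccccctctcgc
CEBPA: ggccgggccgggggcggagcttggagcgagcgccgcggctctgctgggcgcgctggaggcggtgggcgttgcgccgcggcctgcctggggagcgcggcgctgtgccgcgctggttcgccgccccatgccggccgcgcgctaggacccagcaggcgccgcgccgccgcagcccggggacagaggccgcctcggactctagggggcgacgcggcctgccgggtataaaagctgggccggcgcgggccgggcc
The CEBPE window holds 57.2% GC and 2 CpG dinucleotides, the CEBPB window 75.6% and 25, and the CEBPA window 81.2% and 41, beside medians of 58.0% and 11 over 27305 promoters. CEBPE holds a MYB motif (CAACTG) 176 to 171 bases before the start and a KLF motif (GGGTGTG) 120 to 114 bases before it. The RefSeq start of CEBPE lies 1001 bases inside the gene as the table draws it, and that of CEBPB lies 247 bases before the table's start.

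CEBPE (chr14:23117036-23120256, minus strand) had 6.91, 6.45 and 7.28 CPM with WD6305, against 4.53, 3.91 and 4.26 CPM with DMSO. All WD6305 libraries were higher, and the gap between the groups was wider than the range within either group. The rise was 1.62-fold, a log2 fold change of 0.70 (SE 0.13, 95% interval 0.41 to 0.99, edgeR adjusted p = 0.00442), the largest of the 10 factors, and CEBPE was called in all 15 alternative settings. CEBPB (chr20:50190830-50192668, plus strand) had 11.1, 11.3 and 11.8 CPM with WD6305, against 5.97, 9.46 and 7.84 CPM with DMSO. Here the DMSO libraries were far apart, with a coefficient of variation of 22.5% in DMSO and 3.12% in WD6305. The log2 fold change was 0.55 (SE 0.16, 95% interval 0.20 to 0.91, edgeR adjusted p = 0.0333), and the call was lost without DMSO 1, DMSO 3 or any 1 of the WD6305 libraries, with edgeR adjusted p between 0.0636 and 0.104. It was also lost without both WD6305 1 and DMSO 3 (log2 fold change 0.58, edgeR adjusted p = 0.0968).

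CEBPA (chr19:33299934-33302534, minus strand), a gene mutated in some acute myeloid leukaemias, had 333, 385 and 372 CPM with WD6305, against 405, 379 and 378 CPM with DMSO. The groups overlapped, and WD6305 1 was the lowest of the 6. The log2 fold change was -0.09 (SE 0.06, 95% interval -0.23 to 0.05, edgeR adjusted p = 0.323), and -0.05 without WD6305 1 and DMSO 3 (edgeR adjusted p = 0.547). CEBPA was called in 0 of the 15 alternative settings, DESeq2 included, and its unadjusted p was 0.161, also by edgeR. CEBPD, a C/EBP gene of inflammation and granulocyte maturation that is not among the 10, had 47.7 ± 6.08 FPKM with WD6305 and 27.6 ± 0.928 FPKM with DMSO, a 1.75-fold rise (log2 fold change 0.81, SE 0.10, edgeR adjusted p = 0.000566). CEBPG, a partner that lacks an activation domain, rose by 0.30 on the log2 scale (edgeR adjusted p = 0.00335).

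The share of CEBPA in its family was smaller in every WD6305 library than in any DMSO library. CEBPA made up 60.6% (range 56.8 to 63.5) of the summed C/EBP FPKM with WD6305 and 70.9% (69.6 to 72.4) with DMSO. CEBPD made up 22.2% with WD6305 and 13.8% with DMSO, CEBPB 2.68% with WD6305 and 2.01% with DMSO, and CEBPE 1.69% with WD6305 and 1.14% with DMSO. The family sum was 215.6 ± 4.58 FPKM with WD6305 and 199.9 ± 2.13 FPKM with DMSO. The log2 ratio of CEBPE to CEBPA in CPM was -5.72 ± 0.16 with WD6305 and -6.52 ± 0.07 with DMSO, a difference of 0.80 with no overlap. The ratio of CEBPB to CEBPA was -4.99 ± 0.09 with WD6305 and -5.67 ± 0.39 with DMSO, and that of SPI1 to CEBPA 0.11 ± 0.12 with WD6305 and -0.28 ± 0.14 with DMSO, again with no overlap. Each of these 3 ratios had p = 0.1 in a two-sided exact permutation test, the lowest value possible with 3 libraries per group, and 0.167 after Benjamini-Hochberg adjustment over the 5 ratios compared.

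**Figure D3:**
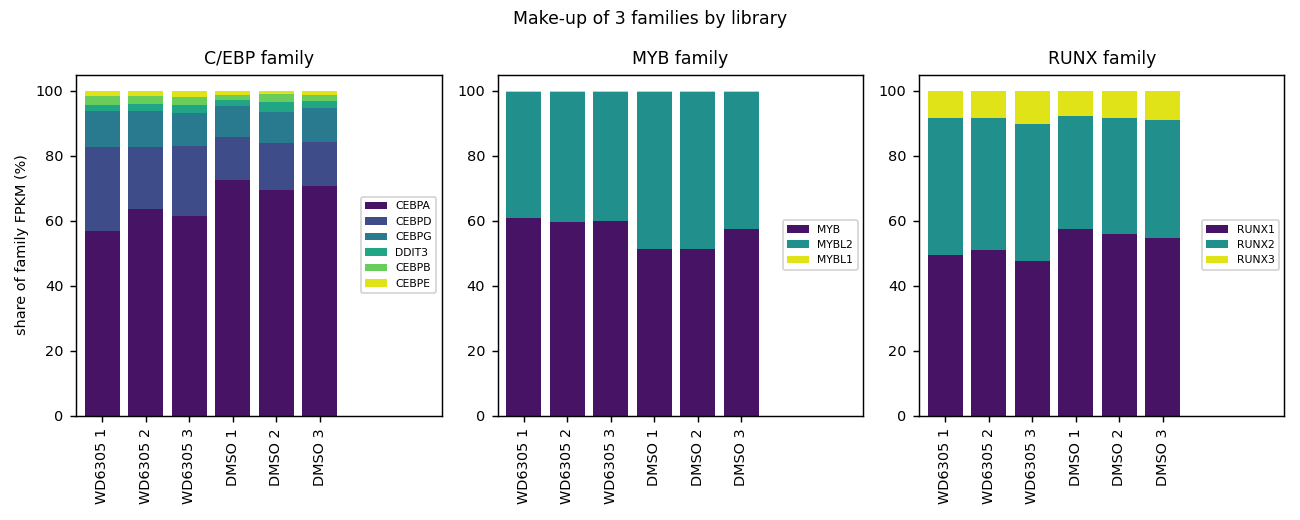
Share (%) of the summed FPKM of the C/EBP, MYB and RUNX families held by each gene, with 1 stacked bar per library, WD6305 left of DMSO. CEBPA holds 56.8 to 63.5% of the C/EBP sum in the WD6305 libraries and 69.6 to 72.4% in the DMSO libraries.

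GFI1 and IRF8, which favour opposite paths, both rose, and their ratio overlapped between the groups. GFI1, a zinc finger repressor that recruits the demethylase KDM1A and favours neutrophils, lies on the minus strand of chr1:92473043-92486925. It had 273, 264.5 and 272 CPM with WD6305, against 236, 249 and 238 CPM with DMSO, with no overlap. The log2 fold change was 0.16 (SE 0.04, 95% interval 0.07 to 0.26, edgeR adjusted p = 0.0238), the smallest of the called factors. The call was lost without DMSO 1 or any 1 of the WD6305 libraries (edgeR adjusted p = 0.0542 to 0.0986), and without both WD6305 1 and DMSO 3 (log2 fold change 0.15, edgeR adjusted p = 0.0714). GFI1 made up 99.99% of the FPKM of GFI1 and GFI1B with WD6305 and 99.98% with DMSO.

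IRF8 (chr16:85899116-85922606, plus strand), an interferon regulatory factor that works with PU.1 and steers progenitors to monocytes and dendritic cells, had 324, 326 and 328.5 CPM with WD6305, against 293, 272 and 283.5 CPM with DMSO. The WD6305 libraries were nearly equal and all above DMSO. Its log2 fold change was 0.20 (SE 0.04, 95% interval 0.11 to 0.30, edgeR adjusted p = 0.00971), and the call was lost without WD6305 3 (edgeR adjusted p = 0.0526). The log2 ratio of IRF8 to GFI1 was 0.27 ± 0.03 with WD6305 and 0.23 ± 0.09 with DMSO, with overlap (two-sided exact permutation p = 0.7). The ratio to MYB was -0.78 ± 0.13 with WD6305 and -0.67 ± 0.11 with DMSO, also with overlap (two-sided exact permutation p = 0.5). IRF8 held 45.9% of the summed FPKM of the IRF family with WD6305 and 47.9% with DMSO.

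KLF4, a zinc finger factor of monocyte differentiation, lies on the minus strand of chr9:107484852-107489766. It had 17.1, 20.5 and 19.4 CPM with WD6305, against 14.8, 16.6 and 13.15 CPM with DMSO. The lowest WD6305 library and the highest DMSO library were close, though the groups did not overlap. The log2 fold change was 0.35 (SE 0.11, 95% interval 0.10 to 0.60, edgeR adjusted p = 0.0478), and it passed in 5 of 15 alternative settings. Losing DMSO 1, DMSO 3, WD6305 2 or WD6305 3 ended the call (edgeR adjusted p = 0.105 to 0.158), as did leaving out both WD6305 1 and DMSO 3 (log2 fold change 0.34, edgeR adjusted p = 0.0597). KLF4 held 13.1% of the summed FPKM of 6 KLF genes with WD6305 and 11.3% with DMSO, behind KLF13 and KLF10.

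ZEB2, a zinc finger repressor of transcription found in monocytes and plasmacytoid dendritic cells, lies on the minus strand of chr2:144364364-144521057. It had 339, 327 and 332 CPM with WD6305, against 243, 258 and 305 CPM with DMSO. DMSO 3 was well above the other DMSO libraries and still below every WD6305 library. The log2 fold change was 0.31 (SE 0.08, 95% interval 0.13 to 0.49, edgeR adjusted p = 0.0212). The call was lost without DMSO 1, DMSO 2 or any 1 of the WD6305 libraries (edgeR adjusted p = 0.0579 to 0.0823), and without both WD6305 1 and DMSO 3 the log2 fold change was 0.40 (edgeR adjusted p = 0.00196). ZEB1, its relative, had a log2 fold change of 0.82 at trace levels and did not pass (edgeR adjusted p = 0.114). ZEB2 held 98.6% of the FPKM of ZEB1 and ZEB2 with WD6305 and 99.0% with DMSO.

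MYB, which keeps progenitors proliferating and is needed by many acute myeloid leukaemias, lies on the plus strand of chr6:135181308-135219173. It had 614.5, 525 and 545 CPM with WD6305, against 429, 441 and 484 CPM with DMSO. WD6305 1 was the highest of its group and DMSO 3 the highest of the other, the same libraries that stood apart in keratin transcripts. Without both libraries the log2 fold change was 0.30 (edgeR adjusted p = 0.00476). With all libraries it was 0.32 (SE 0.07, 95% interval 0.16 to 0.48, edgeR adjusted p = 0.0122), and it was lost without DMSO 2 (edgeR adjusted p = 0.0523). MYB held 60.2% (range 59.7 to 61.0) of the summed FPKM of the MYB family with WD6305 and 53.3% (51.2 to 57.3) with DMSO, and MYBL2, a cell cycle gene, held 39.4% with WD6305 and 46.3% with DMSO.

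**Figure D4:**
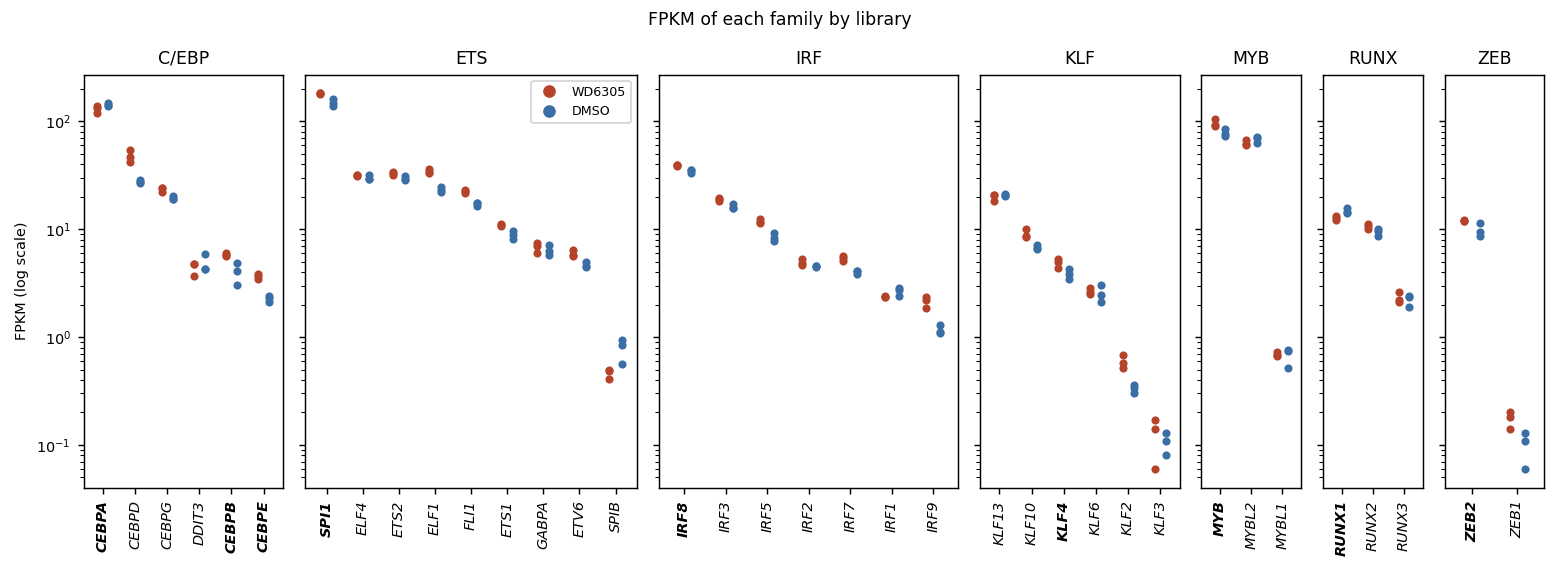
FPKM on a log scale of the factors (bold) and their family relatives, WD6305 left of DMSO, each point 1 library; genes at 0 in any library and the GFI1 family are not drawn. CEBPD (47.7 against 27.6 FPKM) and ELF1 (34.5 against 23.3 FPKM) separate by group.

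Of 28 relatives of the factors tested, 13 rose, 1 fell and 14 were not called, with a median log2 fold change of 0.23. Over all tested genes the median was 0.00 and 12.2% were higher. Among genes with a mean FPKM of at least 1, 17.8% were higher. The share of relatives called was 50.0%, beside 33.8% of those genes. ELF1, an ETS factor of lymphoid and myeloid genes, had 34.5 ± 1.68 FPKM with WD6305 and 23.3 ± 1.17 FPKM with DMSO (log2 fold change 0.59, edgeR adjusted p = 0.000168). FLI1, an ETS factor of megakaryocytes and stem cells, rose by 0.42 on the log2 scale (edgeR adjusted p = 0.000348), and IRF9, the DNA-binding part of the interferon complex ISGF3, by 0.89 (edgeR adjusted p = 0.00119). The gene that fell was SPIB, the ETS relative nearest to PU.1, at 0.463 ± 0.0473 FPKM with WD6305 and 0.780 ± 0.197 FPKM with DMSO, a call that was lost without any 1 library except DMSO 3. SPI1 held 55.4% of the summed ETS FPKM with WD6305 and 55.2% with DMSO.

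Of 19 partners and corepressors tested, 13 were not called, 6 fell and 0 rose by edgeR at an adjusted p under 0.05. That is 31.6% called, beside 33.8% of all genes with a mean FPKM of at least 1. By edgeR at an unadjusted p under 0.05 the counts were 7 lower and 2 higher, and DESeq2 called 6 lower and 0 higher. The median log2 fold change of the 19 was -0.06. KDM1A, the histone demethylase that GFI1 recruits, had 6.99 FPKM with WD6305 and 9.52 FPKM with DMSO, and fell by 0.42 on the log2 scale (edgeR adjusted p = 0.000532). ID1, which blocks helix-loop-helix factors, fell by 1.23 (edgeR adjusted p = 0.00073), EHMT2, a histone methyltransferase, by 0.32 (edgeR adjusted p = 0.00146), and HDAC1, a histone deacetylase, by 0.21 (edgeR adjusted p = 0.00853).

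Factors of other lineages and stages were mixed. The share called was 44.4% of stem and progenitor, 31.6% of monocyte and macrophage and 25.0% of lymphoid and erythroid factors. Over all tested genes it was 23.4%, and over those with a mean FPKM of at least 1 it was 33.8%. Among 9 stem and progenitor factors, 2 rose and 2 fell, and GATA2, which maintains stem cells, was at 1.59 FPKM with WD6305 and 3.47 FPKM with DMSO, and fell by 1.10 on the log2 scale (edgeR adjusted p = 0.000563). HHEX, a homeobox gene of early haematopoiesis, rose by 0.29 (edgeR adjusted p = 0.00943). BCL11A (0.26) and SATB1 (-0.16) were called with all libraries (edgeR adjusted p = 0.0263 and 0.0436), but BCL11A lost the call without DMSO 1, DMSO 2, WD6305 1 or WD6305 3, and SATB1 without any 1 library except WD6305 1. Without WD6305 3, 2 of the 9 were called. Among 19 monocyte and macrophage factors, 3 rose and 3 fell, with a median of -0.04. TFEC, a macrophage relative of MITF, had 11.2 FPKM with WD6305 and 5.15 FPKM with DMSO (log2 fold change 1.15, edgeR adjusted p = 0.000212), and BACH1, a haem-sensing repressor, rose by 0.50 (edgeR adjusted p = 0.00138). NR4A1, a nuclear receptor of patrolling monocytes, fell by 0.70 (edgeR adjusted p = 0.0102), a call that was lost without both WD6305 1 and DMSO 3 (edgeR adjusted p = 0.0511). Of 4 lymphoid and erythroid factors, 1 rose: NFE2, a factor of megakaryocytes and red cells that myeloid cells also express, had 36.4 FPKM with WD6305 and 16.9 FPKM with DMSO (log2 fold change 1.13, edgeR adjusted p = 5.51e-05). EBF1, KLF1 and TCF7 were not called.

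**Figure D5:**
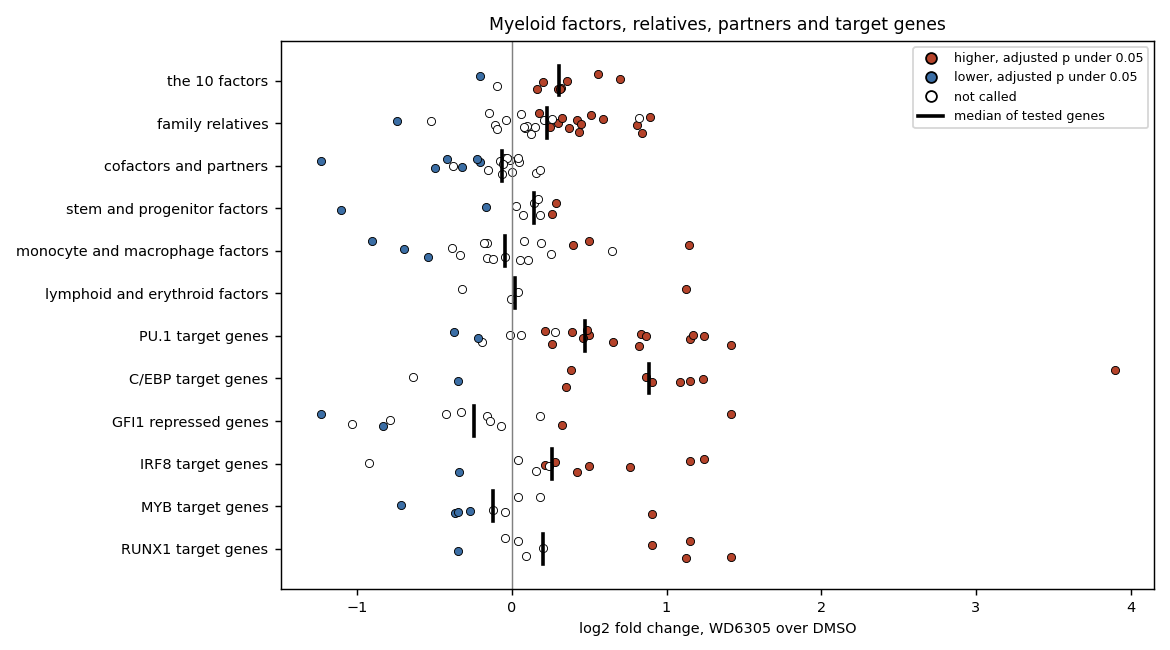
Log2 fold change, WD6305 over DMSO, of each tested gene (points) in each list, filled red where higher and blue where lower at an edgeR adjusted p under 0.05 and open where not called; the thick bar is the median of the list. Of the target lists, PU.1 has 14 higher and 2 lower of 20, C/EBP 8 and 1 of 10, and IRF8 7 and 1 of 12. The 8 include BPI, which passed the filter on low counts only through its WD6305 libraries. The cofactors and partners have no red point. Over all tested genes 12.2% were higher and 11.2% lower, and among those with a mean FPKM of at least 1, 17.8% and 16.1%. The lists were chosen with earlier results of these data known.

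Known target genes of the factors were read next, from lists that share genes. Of 20 PU.1 target genes, 14 rose and 2 fell, and the median log2 fold change was 0.47. CSF3R, the receptor for granulocyte colony-stimulating factor, had 24.7 FPKM with WD6305 and 11.3 FPKM with DMSO, and CD68, a lysosomal protein of macrophages, 94.9 FPKM with WD6305 and 42.8 FPKM with DMSO. Both rose, with log2 fold changes of 1.15 and 1.17 (edgeR adjusted p = 2.4e-05 for each). TYROBP, a signalling adaptor, rose by 0.82 and CSF1R, the monocyte growth factor receptor, by 1.41. CSF1R was low in both groups, at 1.90 FPKM with WD6305 and 0.720 FPKM with DMSO. The 2 that fell were CD14, the lipopolysaccharide co-receptor of monocytes, and VAV1, a guanine nucleotide exchange factor of blood cells. CD14 had 7.73 ± 0.569 FPKM with WD6305 and 10.2 ± 0.167 FPKM with DMSO (log2 fold change -0.37, edgeR adjusted p = 0.0123), a call that was lost without WD6305 2 or WD6305 3, and VAV1 fell by 0.22 on the log2 scale (edgeR adjusted p = 0.00958).

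C/EBP target genes held the granule proteases. Of 18 such genes 10 were tested, and of these 8 rose and 1 fell, with a median log2 fold change of 0.89. ELANE, neutrophil elastase, had 2894 FPKM with WD6305 and 1572 FPKM with DMSO, and AZU1, azurocidin, 924 FPKM with WD6305 and 399 FPKM with DMSO. PRTN3, proteinase 3, rose by 1.09 on the log2 scale. BPI, a bactericidal granule protein, had counts of 81, 134 and 96 with WD6305 and 0, 8 and 13 with DMSO. It passed the filter on low counts only through its WD6305 libraries, so its place among the 8 is not independent of its rise. MPO, myeloperoxidase, fell by 0.35 (edgeR adjusted p = 0.0226), a call that was lost without DMSO 1, DMSO 2, WD6305 1 or WD6305 3.

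Of 12 IRF8 target genes, 7 rose and 1 fell, with a median of 0.26; CYBB, the catalytic subunit of the phagocyte oxidase, rose by 0.50, TNFAIP3, an inhibitor of NF-kB signalling, by 0.76, CTSC, the protease that activates granule enzymes, by 0.42 and CIITA, the activator of MHC class II genes, by 1.15. Of 12 genes known to be repressed by GFI1, 2 rose and 2 fell, with a median of -0.24. That is 33.3% called, beside 33.8% of all genes with a mean FPKM of at least 1. CSF1R and ETS1 rose, ID1 fell, and CDKN1A, a cell cycle inhibitor, fell by 0.83. Of 9 MYB target genes, 1 rose and 4 fell, with a median of -0.12. ELANE is the one that rose, and MYC, a growth regulator, fell by 0.37 (64.8 FPKM with WD6305 and 85.0 FPKM with DMSO), ADA, adenosine deaminase, by 0.72 and CCNB1, a mitotic cyclin, by 0.27. Of 9 RUNX1 target genes, 4 rose, namely CSF3R, ELANE, NFE2 and CSF1R, and MPO fell, with a median of 0.20. Whether any factor drives the changes in its list was not tested.

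Features of the genes themselves differed widely among the 10. In the longest coding transcript of GENCODE 29, the sequence GGACT, a frequent context of N6-methyladenosine, occurred 2.14 times per kb in SPI1, 2.05 in CEBPB and 0 times in CEBPE, beside a median of 0.936 over 13411 genes. MYB and IRF8 had 0.545 and 0.330 per kb. These libraries do not measure N6-methyladenosine, and whether the sequence relates to the changes was not tested. CEBPA and CEBPB have a single exon, as do 2.75% of those genes. Of the promoters, 9 of 10 were matched in RefSeq, SPI1 being the other. Motifs were searched on both strands in the 250 bases before the start. A MYB motif (CAACTG or, with G at its second-last base, CAACGG; each also with T in place of the leading C) was in CEBPE and IRF8 and in 21.3% of all promoters. The PU.1 motif GGAAGT was in KLF4 and in 19.9% of all, the GFI1 motif AATCAC in IRF8 and RUNX1 and in 9.11%, the RUNX motif TGTGGT in IRF8 and in 10.9%, and the KLF motif GGGTGNG in CEBPE and in 29.4%. The IRF motif (a GAAA repeat 2 bases apart) was in ZEB2 and in 3.07%. The C/EBP motifs TTGCGCAA and TTGCNNNAA (0.11% and 7.8% of all) and the ZEB motif CACCTG (17.5%) were in none of the 9 windows. The RefSeq start of RUNX1 lies 1096050 bases and that of IRF8 3714 bases inside the gene as the table draws it, and a match is a match of letters only.

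Antisense and overlapping transcripts limit a few values. Of 21 genes that overlap a factor or lie within 5 kb of it, 11 were tested, and ENSG00000255197 beside SPI1 was the only one called. CEBPA-DT, MYB-AS1, CEBPB-AS1 and ZEB2-AS1 were below 1.5 FPKM in both groups and were not called (edgeR). The libraries were made with strand marking, per the labels' protocols, but the sources used here do not give the strand setting of the counting, so reads of a factor and its antisense partner may not be separated.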

How the data were processed

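RNA was measured in 6 Mon-Mac-6 libraries, 3 with WD6305 and 3 with DMSO. The deposited table gives FPKM and an estimated count per gene and library. Per the submitters' processing notes, the authors used fastp, HISAT2, StringTie and edgeR with GRCh38; the sources used here give no versions or settings. As deposited, the estimated counts are whole and pile up at multiples of 4, so they may overstate the fragments sequenced. There were 0 columns from other samples.

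Genes were kept with filterByExpr (18138 of 31853) and scaled with TMM, and WD6305 was compared with DMSO in edgeR 4.0.16 (R 4.3.3) by the quasi-likelihood test, two-sided, with no replicate block and Benjamini-Hochberg adjustment over all tested genes at 0.05. CPM used the TMM-scaled library size. Standard errors came from the quasi-likelihood F value and intervals from its degrees of freedom. DESeq2 1.42.0 and limma 3.58.1 on log2(FPKM + 1) were alternatives. The fit was also run on simulated counts with the same spread for all genes and no library that stands apart. That run does not check the fit on libraries such as these. The 10 factors and the gene lists were chosen with earlier results of these data known. Named genes were the 10 factors, METTL3, neighbours within 5 kb, and in each list genes called with at least a 2-fold change and up to 4 with the smallest adjusted p; RUNX2, SPIB, CEBPG, MPO, ZEB1, MYBL2, KLF10, KLF13, CD14, VAV1, LYZ and the other monocyte markers were added after their values were seen. Promoters came from RefSeq GRCh38.p14 and transcripts from GENCODE 29. Protein identity was not run. Some genes that met the naming rule are not reported here.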

Additional observations from a re-analysis of the deposited data

How the results depend on the processing

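In 15 alternative settings no called difference of the 10 factors changed sign. SPI1 and CEBPE were called in all 15, IRF8 and MYB in 14, RUNX1 in 11, GFI1 in 9, CEBPB in 8, ZEB2 in 7, KLF4 in 5 and CEBPA in 0; the cause of each lost call was not tested. Without the filter on low counts, more genes were tested and 5 factors were called, 5 higher and 0 lower: CEBPB (log2 fold change 0.55, edgeR adjusted p = 0.0859), KLF4 (0.35, 0.108), RUNX1 (-0.21, 0.0549) and ZEB2 (0.31, 0.0637) were lost. Without WD6305 1 and DMSO 3, 5 factors were higher, and CEBPB (0.58, edgeR adjusted p = 0.0968), GFI1 (0.15, 0.0714) and KLF4 (0.34, 0.0597) were lost. With library sizes alone KLF4 was lost (0.33, 0.0559). In limma on log2(FPKM + 1), KLF4 (0.27, 0.0777) and ZEB2 (0.27, 0.0697) were lost, and on log2(FPKM + 0.1) KLF4 (0.32, 0.0709) and ZEB2 (0.29, 0.0660).

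The labels do not say whether shared replicate numbers pair the libraries. Deviations of same-numbered libraries correlated at -0.181, 0.0782 and -0.146 for numbers 1, 2 and 3. Those of differently numbered libraries correlated at -0.162 to 0.265, the highest for WD6305 1 with DMSO 3. With 3 libraries per group these values cannot show whether libraries were handled in pairs. With the replicate block 3204 genes were called, 1736 higher and 1468 lower, GFI1 (0.16, edgeR adjusted p = 0.0725) and KLF4 (0.36, 0.0537) were lost, and 2 stem and progenitor factors were called, against 4 without it.

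Leaving out 1 library at a time, the log2 fold change was -0.14 to -0.03 for CEBPA, 0.40 to 0.72 for CEBPB, 0.64 to 0.75 for CEBPE, 0.15 to 0.19 for GFI1, 0.18 to 0.23 for IRF8, 0.27 to 0.44 for KLF4, 0.25 to 0.37 for MYB, -0.24 to -0.16 for RUNX1, 0.26 to 0.36 for SPI1 and 0.24 to 0.41 for ZEB2. The number of factors called was 3 to 7, with 3 to 6 higher and 0 to 1 lower. Over all genes 2756 (without WD6305 3) to 4640 were called, 1446 to 2563 higher and 1310 to 2077 lower, and of the stem and progenitor factors 2 to 3, the lowest without WD6305 3. The other lists stayed within 1.5 times their counts.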
